A study of Arabidopsis thaliana and Lotus japonicus with 44 samples.

Results

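The AMF response of the IPD3-min lines of Arabidopsis was measured in 14 of the 44 libraries of the series, of which 30 are from Arabidopsis. The libraries were chosen by their labels alone, as all those of lines 308 and 310 on 1/2 MS medium. There were 7 libraries with AMF (4 of line 308 and 3 of line 310) and 7 without AMF (4 of line 308 and 3 of line 310). Both lines are independent, homozygous transformants of Col-0 that express, under the UBQ10 promoter of Arabidopsis, the C-terminal part of IPD3 of Medicago truncatula with its DNA-binding domain, together with an mCherry marker driven by the 35S promoter. The plants with AMF received 200 germinated spores of Rhizophagus irregularis each, and the plants without AMF received a mock treatment of sterile water. Roots of 6-week-old plants were collected 48 h later, and the roots of 5 seedlings from one plate were pooled in each library, so that the spread between libraries is that between such pools. The wild type Col-0 on the same medium, with 4 libraries per treatment, was set beside the lines. The question was what the fungus changes in roots of a plant that cannot host it but carries part of a symbiosis regulator, and whether both lines change alike.

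IPD3, also named CYCLOPS, is a transcription factor that legumes and other hosts activate when the calcium signal of the common symbiosis pathway reaches the nucleus. Arabidopsis belongs to a plant family that does not form arbuscular mycorrhiza and has lost IPD3 along with other genes of this pathway. Several of the transcripts described below belong to the circadian clock of Arabidopsis. In this clock, CCA1 and LHY are high in the morning and repress evening genes through a short DNA sequence, the evening element. PRR5, TOC1, GI, FKF1 and the evening complex of ELF3, ELF4 and LUX are high later in the day, and PRR5, TOC1 and the evening complex act back on the clock as repressors. Plants lay down starch by day and break it down by night, and many genes for its breakdown follow the same rhythm.

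Counts are read pairs per annotated transcript, and levels are given as CPM, counts scaled to library totals with the TMM factors of edgeR. A transcript was called when its adjusted p, from the quasi-likelihood test of edgeR with Benjamini-Hochberg adjustment over all 16925 transcripts tested, was below 0.05. All adjusted p below are from this test unless another is named. Library totals lay between 13926761 and 14186270 counts with AMF and between 13402761 and 14259603 counts without AMF, so that the ranges overlapped. Each of the 14 libraries held a count for 21659 to 22280 transcripts. Within each line and treatment no library was a copy of another: every one of the 18 pairs of replicates differed by more than sampling noise. Pairs across lines or treatments were not compared in this way.

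The tissue was checked with marker genes. The sum of root genes was high in all libraries: PYK10, IRT1, PHT1;1, CASP1 and EXPA7 summed to between 14836 and 19676 CPM with AMF (median 16983) and between 12257 and 17041 CPM without AMF (median 14077). Most of this sum was PYK10, with a mean of 197600 counts per library. The means were 15080 for PHT1;1, 3833 for CASP1, 2525 for IRT1 and 886 for EXPA7. The 12 tested of 19 photosynthesis genes of leaves summed to between 1032 and 2191 CPM with AMF (median 1329) and between 981 and 3242 CPM without AMF (median 1765), and 11 of the 12 had a negative fold change with AMF. None of the marker genes of leaf, root hair, endodermis and cortex, vascular tissue, dividing cells or root cap was called. All 7 markers of endodermis and cortex (median −0.20) and all 6 of dividing cells (median −0.06) had negative values. Positive values were held by 4 of 6 root hair, 3 of 6 tested vascular and 2 of 3 root cap markers. RBCS1A, RBCS1B, RBCS2B, RBCS3B, RCA and CA1, which define photosynthetic leaf tissue, held 0 to 3 counts in any library and lay under the filter, like 89 of the listed genes, 79 of which have more than 1 annotated transcript. The deposited counts leave out read pairs that fall on more than 1 transcript. All 27 transcripts called below belong to genes with 1 annotated transcript. A tested transcript was found for 49.7% of the genes with 1 annotated transcript and for 33.5% of the genes with more than 1. The part of the leaf markers, and of the other cell types marked, in the results below was not tested.

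With AMF, 27 transcripts differed from those without AMF over both lines, 3 higher and 24 lower. These calls are 0.16% of the transcripts tested (0.0177% higher and 0.142% lower), while 1591 transcripts, 9.4%, had an unadjusted p below 0.05. The changes were small. Their median size was 0.54 on the log2 scale, with 0.26 as the smallest and 1.85 as the largest, and 3 of the 27 reached a size of 1: FKF1, ERF53 and PRR5. The 24 transcripts that fell had a median log2 fold change of −0.52, a loss of 30.3% of the level without AMF, and the median over all tested transcripts was −0.01. In 19 of the 27 the 7 libraries with AMF did not overlap the 7 without, which held for 0.236% of all tested transcripts (0.0768% with higher and 0.16% with lower values). Within each line the treatments did not overlap in 26 of the 27, against 0.544% of all tested. With a library left out the count of calls ran from 14 to 38: it was 14 without replicate 4 of line 308 with AMF, 15 without replicate 3 of line 310 without AMF, and 17 without replicate 2 of line 308 or replicate 1 of line 310, both with AMF. FKF1, PRR5, AT4G26670, DGAT1, RCI2A, PDC2, BBX13, AT1G08890, ERF53, ISA3, AT1G45163 and AT3G07273 were called in all 14 of these fits. DESeq2 called 153 transcripts (0.904%), 88 higher and 65 lower, of which 26 are among the 27, so the share that rose depends on the tool. In bulk roots, fewer cells of a type and less RNA per cell cannot be told apart.

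**Figure D1:**
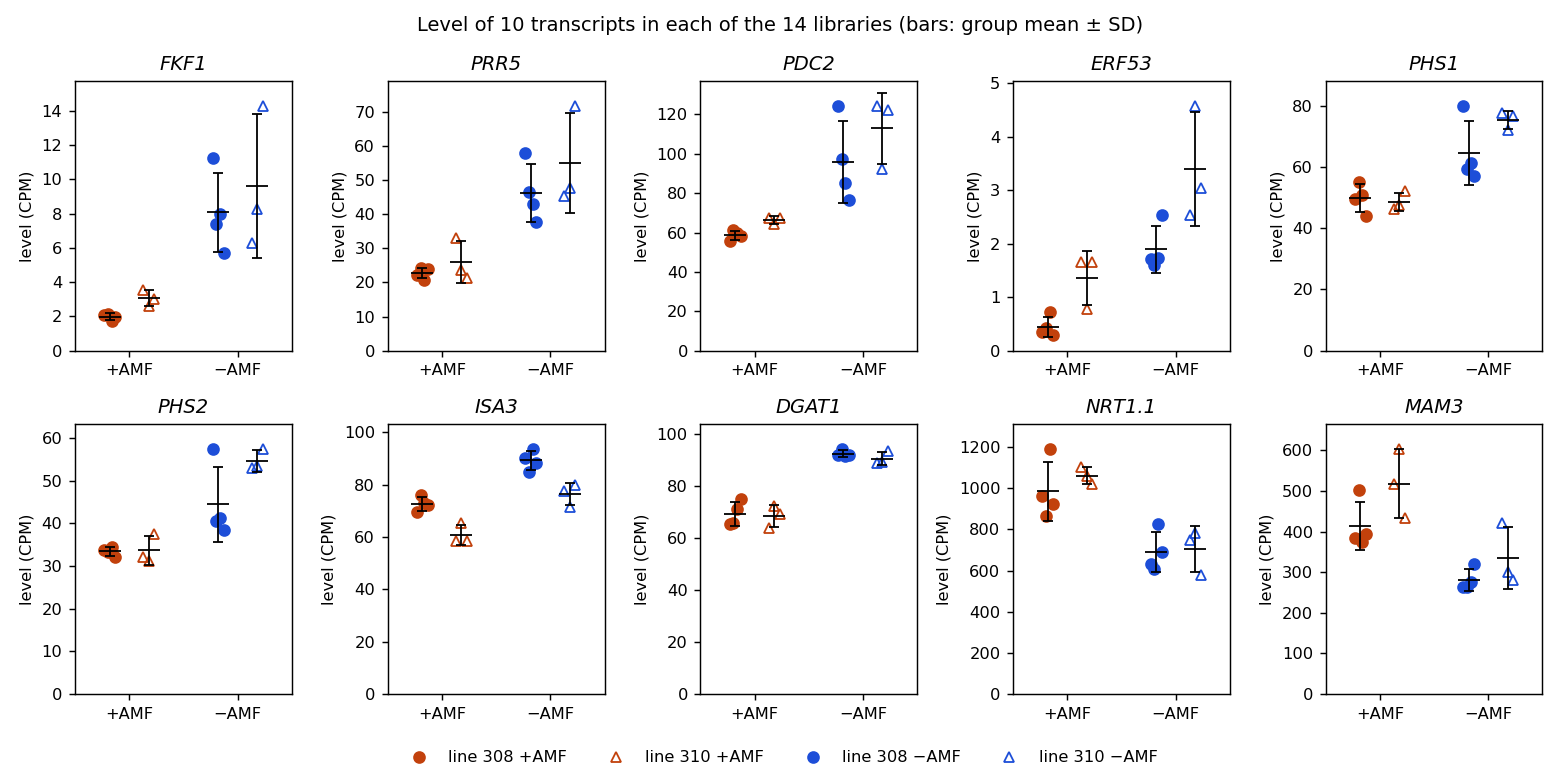
Levels in CPM (y axis, from 0) of 10 transcripts in each library, +AMF left and −AMF right, with a filled point for each library of line 308 and an open triangle for each of line 310, and bars for the mean ± SD of each line and treatment. FKF1 lies between 1.72 and 3.54 CPM in the libraries with AMF and between 5.72 and 14.3 CPM in those without.

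The largest change was in the clock. FKF1 and PRR5 fell, with the same direction in both lines. FKF1 (AT1G68050.1, chr1:25508639-25510907, plus strand) codes for an F-box protein that is a blue-light receptor and marks CDF repressors of flowering for breakdown. In line 308 with AMF its levels were 2.08, 2.14, 1.72 and 1.99 CPM, against 11.2, 7.41, 7.98 and 5.72 CPM without AMF. In line 310 with AMF they were 3.54, 2.63 and 3.02 CPM, against 6.28, 8.25 and 14.3 CPM without AMF. Every library with AMF lay below every library without it, in each line and across lines. FKF1 fell by 72.3%, a log2 fold change of −1.85 ± 0.20 (SE) with an adjusted p of 0.000529, and the change was −2.02 ± 0.27 in line 308 and −1.65 ± 0.29 in line 310.

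PRR5 (AT5G24470.1, chr5:8356204-8358546, minus strand) is a pseudo-response regulator that represses CCA1 and LHY. Line 308 had 22.2, 24.2, 20.8 and 23.9 CPM with AMF, against 58, 46.5, 42.9 and 37.7 CPM without AMF. Line 310 had 33.0, 23.61 and 21.4 CPM with AMF, against 45.3, 47.7 and 71.8 CPM without AMF. No library with AMF reached the level of any library without it. PRR5 fell by 51.6%, a log2 fold change of −1.05 ± 0.12 with an adjusted p of 0.0013.

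Of the 21 clock genes listed, 15 were tested, and FKF1 and PRR5 were the 2 called lower, with none called higher, against the 0.142% called lower over all transcripts. The median log2 fold change of the 15 was −0.32, and −0.01 over all tested; 8 of the 15 had an unadjusted p below 0.05, against 9.4% of all tested. Values of other evening genes were negative in both lines without passing the threshold: −0.42 ± 0.08 for the regulator TOC1 (adjusted p = 0.0583), −0.95 ± 0.20 for ELF4 (0.113), −0.32 ± 0.08 for ELF3 (0.176) and −0.29 ± 0.07 for GI (0.208). TOC1 is one of the transcripts just outside the threshold. CCA1, the repressor of the morning, had a positive value of 0.68 ± 0.21 (adjusted p = 0.325). LUX differed most between the lines among evening genes, with −0.95 in line 308 and 0.03 in line 310. GRP7 and GRP8, RNA-binding proteins under clock control, had values of −0.83 ± 0.54 and −0.46 ± 0.25 (adjusted p = 0.674 and 0.59). LHY, PRR9, PRR3, BOA, RVE4 and LNK1 lay under the filter. Plants were treated and collected 4 to 6 h after lights on in days of 16 h light and 8 h dark. The hour at which each library was collected is not given in the sources used here, and its part in these values was not tested.

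**Figure D2:**
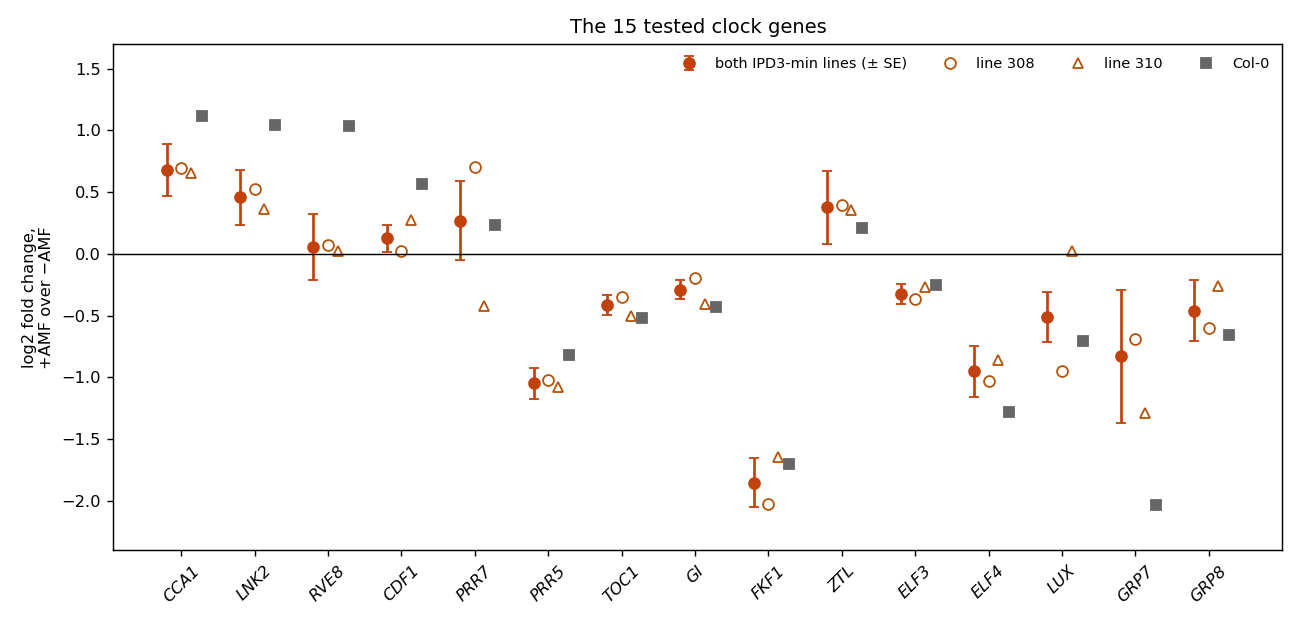
Log2 fold change (+AMF over −AMF) of the 15 tested clock genes over both lines, with SE as bars, in each line, and in Col-0. FKF1 and PRR5 are the 2 called lower over both lines, and CCA1 has the highest value, at 0.68.

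The same 250 bases upstream of the transcript start were searched in all tested transcripts for the letters of the evening element, AAAATATCT, on both strands. Of the 24 transcripts called lower, 8 held it, and 6 of these 8 are not on the clock list. Over all 16888 upstream regions it was found in 397, or 2.35%, and in none of the regions of the 3 transcripts called higher. The search was made with the calls known, and a match describes letters in a window, not a bound site. The windows of these 8 are shown, the other 16 transcripts that fell holding no match; capitals mark the evening element and each window is read 5′ to 3′ on the strand that holds these letters (TAIR10.1, RefSeq).
FKF1, chr1:25508443-25508471, minus strand: atattccgagAAAATATCTagcctactca
PRR5, chr5:8358715-8358743, plus strand: tggagaaaagAAAATATCTagaaaaaatc
PDC2, chr5:22312844-22312872, minus strand: tctgcggctaAAAATATCTtattagccgc
ERF53, chr2:8985874-8985902, minus strand: atcactaagcAAAATATCTcaagccctct
ISA3, chr4:5783860-5783888, minus strand: attttcccggAAAATATCTtcttgtacga
AT4G30650, chr4:14954140-14954168, plus strand: tcttgagatgAAAATATCTaaagagtggg
AT3G04550, chr3:1225779-1225807, plus strand: actaaaaataAAAATATCTtcttcttttt
HSFA8, chr1:25486535-25486563, minus strand: tttttaaataAAAATATCTgttgggccaa

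The element lay at different distances from the start of the transcript. Counted from −1 for the base just before the start, it ran from −186 to −178 in FKF1, from −187 to −179 in PRR5, from −133 to −125 in AT3G04550, from −75 to −67 in ERF53, from −54 to −46 in AT4G30650, from −39 to −31 in ISA3 and from −30 to −22 in PDC2. HSFA8 held a pair of copies, from −41 to −33 and from −15 to −7. The whole upstream regions of the clock genes called lower are given on the strand of the gene, with the element, here in reverse complement as AGATATTTT, in capitals.
FKF1, chr1:25508389-25508638, plus strand: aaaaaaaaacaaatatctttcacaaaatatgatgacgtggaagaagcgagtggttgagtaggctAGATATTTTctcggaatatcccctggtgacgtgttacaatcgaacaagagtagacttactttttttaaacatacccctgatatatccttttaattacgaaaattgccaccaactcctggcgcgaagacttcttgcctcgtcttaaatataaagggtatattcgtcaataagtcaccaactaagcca
PRR5, chr5:8358547-8358796, minus strand: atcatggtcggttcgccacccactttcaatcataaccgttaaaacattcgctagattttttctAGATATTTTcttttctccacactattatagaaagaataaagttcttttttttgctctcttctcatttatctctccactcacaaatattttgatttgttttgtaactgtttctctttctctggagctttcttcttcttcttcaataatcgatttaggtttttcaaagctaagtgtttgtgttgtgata

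Transcripts with the element were also counted without regard to the calls. Of the 397, 12.1% were lower and 3.02% higher with AMF at an unadjusted p below 0.05, while over all 16888 regions 4.78% were lower and 4.61% higher. The median log2 fold change of the 397 was −0.04, with 240 of them negative. A second motif of the clock, the CCA1 binding site AAAAATCT, was found in 6.09% of all regions and in 1 of the 24 transcripts called lower, PRR5. The G-box CACGTG, the last motif searched, was found in 6.8% of all regions and in 7 of the 24: PDC2, AT4G30650, PHS1, PHS2, AT1G11210, SBE2.1 and AT1G19370. Of the 1148 transcripts with a G-box, 5.75% were lower and 5.31% higher at an unadjusted p below 0.05, with a median of 0.003. For the CCA1 binding site these shares were 4.57% and 4.37%. Either the evening element or the G-box was present in 13 of the 24, against 8.96% of all regions.

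Enzymes of starch and glucan turnover were the second group. ISA3, PHS1, PHS2 and SBE2.1 fell with AMF, by between 16.2% and 31.0%. With the replicate number as a block, none of these 4 was called. ISA3 removes branches from starch granules during breakdown, PHS1 and PHS2 are the plastid and the cytosolic glucan phosphorylase, and SBE2.1 is a starch branching enzyme. The list of 28 starch genes was made after these values had been seen, so its counts are a description: 19 were tested, these 4 were called lower, against 0.142% of all transcripts, none was called higher, and the median log2 fold change was −0.10, beside −0.01 over all tested.

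PHS2 (AT3G46970.1, chr3:17301394-17306633, minus strand) had the largest of these changes. Line 308 had 33.8, 33.2, 34.4 and 32.2 CPM with AMF, against 57.4, 40.5, 41.2 and 38.5 CPM without AMF. Line 310 had 32.2, 31.2 and 37.5 CPM with AMF, against 52.9, 53.5 and 57.5 CPM without AMF. The treatments did not overlap, and replicate 1 of line 308 without AMF lay apart from its group on the high side. PHS2 changed by −0.54 ± 0.09 on the log2 scale (adjusted p = 0.0196), with −0.41 in line 308 and −0.70 in line 310, and the adjusted p was 0.0653 without replicate 3 of line 310 without AMF.

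PHS1 (chr3:11252807-11257814, plus strand) ranged between 44.1 and 55.2 CPM with AMF (median 49.4) and between 57.1 and 80.0 CPM without AMF (median 72.0), a log2 fold change of −0.48 ± 0.08 (adjusted p = 0.0211, and 0.0687 without replicate 4 of line 308 with AMF). ISA3 (chr4:5783909-5789100, plus strand) and SBE2.1 (chr2:15264211-15270092, plus strand) differed in level between the lines, so that the treatments overlapped across lines but not within either. ISA3 had 69.6, 76.0, 73.1 and 72.2 CPM in line 308 with AMF, against 90.3, 85.0, 93.8 and 88.3 CPM without AMF, and 58.7, 65.4 and 58.6 CPM in line 310 with AMF, against 77.5, 71.6 and 80.0 CPM without AMF. Its log2 fold change was −0.31 ± 0.05 (adjusted p = 0.0106), and the call was lost with the likelihood-ratio test of edgeR, with the replicate block and without the line covariate. SBE2.1 changed by −0.26 ± 0.05 (adjusted p = 0.0476), the smallest size of all calls, and was called in 1 of the 14 fits with a library left out. Other enzymes of starch breakdown had negative values that did not pass, among them the disproportionating enzymes DPE1 (−0.32 ± 0.08, adjusted p = 0.167) and DPE2 (−0.21 ± 0.04, 0.11) and the beta-amylase BAM3 (−0.57 ± 0.23, 0.461). Of the 19 tested starch genes, 13 had negative and 6 positive values. Positive ones include BAM9 (0.18 ± 0.09, adjusted p = 0.545) and BAM1 (0.11 ± 0.06, 0.593) of the beta-amylase family.

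Further genes of metabolism fell. PDC2 (AT5G54960.1, chr5:22310553-22312832, minus strand), a pyruvate decarboxylase of ethanol fermentation, had 55.9, 61.3, 59.6 and 58.1 CPM in line 308 with AMF, against 124, 97.2, 85.1 and 76.4 CPM without AMF. In line 310 it had 67.6, 64.2 and 67.5 CPM with AMF, against 124, 92.2 and 122 CPM without AMF. All libraries with AMF were below all those without, and those with AMF spread over a range of 55.9 to 67.6 CPM. This gave PDC2 a log2 fold change of −0.73 ± 0.09 (adjusted p = 0.00243). Of 15 tested genes of the response to low oxygen, PDC2 was the 1 called, against 0.142% called lower over all transcripts. Its partner in fermentation, the alcohol dehydrogenase ADH1, had a value of −0.44 ± 0.25 (adjusted p = 0.605).

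DGAT1 (AT2G19450.1, chr2:8426117-8429853, plus strand), which makes the last step of triacylglycerol synthesis, fell with little spread between libraries. Line 308 had 65.1, 65.7, 71.1 and 74.8 CPM with AMF, against 91.6, 94.2, 91.5 and 92.0 CPM without AMF. Line 310 had 63.9, 72.1 and 69.3 CPM with AMF, against 88.8, 89.3 and 93.2 CPM without AMF. A gap separated the treatments, with no library between 74.8 and 88.8 CPM. DGAT1 changed by −0.41 ± 0.05 on the log2 scale (adjusted p = 0.000903), −0.42 in line 308 and −0.40 in line 310. RIBA2 of riboflavin synthesis changed by −0.41 ± 0.07 (adjusted p = 0.0213). HCAR, a reductase of the chlorophyll cycle, changed by −0.92 ± 0.16 (adjusted p = 0.0213) and ranged between 2.37 and 3.01 CPM with AMF and between 3.46 and 7.03 CPM without AMF.

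Regulators and membrane proteins made up much of the rest. ERF53 (AT2G20880.1, chr2:8985959-8987302, plus strand), an AP2/ERF transcription factor of the drought and heat response, had the lowest level of the calls. It had 0.358, 0.429, 0.716 and 0.285 CPM in line 308 with AMF, against 1.7, 1.60, 1.73 and 2.54 CPM without AMF. In line 310 it had 1.66, 0.782 and 1.65 CPM with AMF, against 2.54, 4.58 and 3.04 CPM without AMF. Within each line the treatments were apart, but line 310 with AMF reached the level of line 308 without AMF. ERF53 changed by −1.65 ± 0.25 on the log2 scale (adjusted p = 0.0103), on a mean of 23.7 counts per library, and was not called with the replicate block or without the line covariate. The B-box protein BBX13 changed by −0.41 ± 0.06 (adjusted p = 0.00363) and the heat stress factor HSFA8 by −0.41 ± 0.08 (adjusted p = 0.0397, called in 3 of the 14 fits with a library left out).

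RCI2A (AT3G05880.1, chr3:1755497-1756924, minus strand), a small hydrophobic membrane protein induced by cold, fell over both lines. Line 308 had 288, 331, 292 and 343 CPM with AMF, against 561, 471, 539 and 429 CPM without AMF. Line 310 had 518, 403 and 449 CPM with AMF, against 602, 652 and 710.5 CPM without AMF. The line 310 libraries were higher in both treatments, so that the treatments overlapped across lines and not within them. The log2 fold change was −0.61 ± 0.08 (adjusted p = 0.00243), and the call was lost in the fit on all 30 Arabidopsis libraries and in the fit without the line covariate. The related AT4G30650 changed by −0.51 ± 0.08 (adjusted p = 0.019), and the transporters of the major facilitator superfamily AT1G08890 and AT4G34950 by −0.36 ± 0.05 (adjusted p = 0.00677) and −0.61 ± 0.11 (adjusted p = 0.0326).

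The remaining transcripts called lower are largely of unknown function. AT4G26670, of the Tim17/Tim22/Tim23 family of membrane import proteins, had the second smallest p of all, with a log2 fold change of −0.54 ± 0.06 (adjusted p = 0.000529) and ranges of 40.0 to 47.7 CPM with AMF and 54.7 to 69.7 CPM without AMF. AT1G11210, with a DUF761 domain, changed by −0.95 ± 0.16 (adjusted p = 0.0213). AT5G23575 of the CLPTM1 family, AT3G04550, AT1G45163, AT3G07273 and AT1G19370 had log2 fold changes between −0.60 and −0.31. Exons of another gene lie opposite 67.5% of AT1G45163, and the counting used strand.

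**Figure D3:**
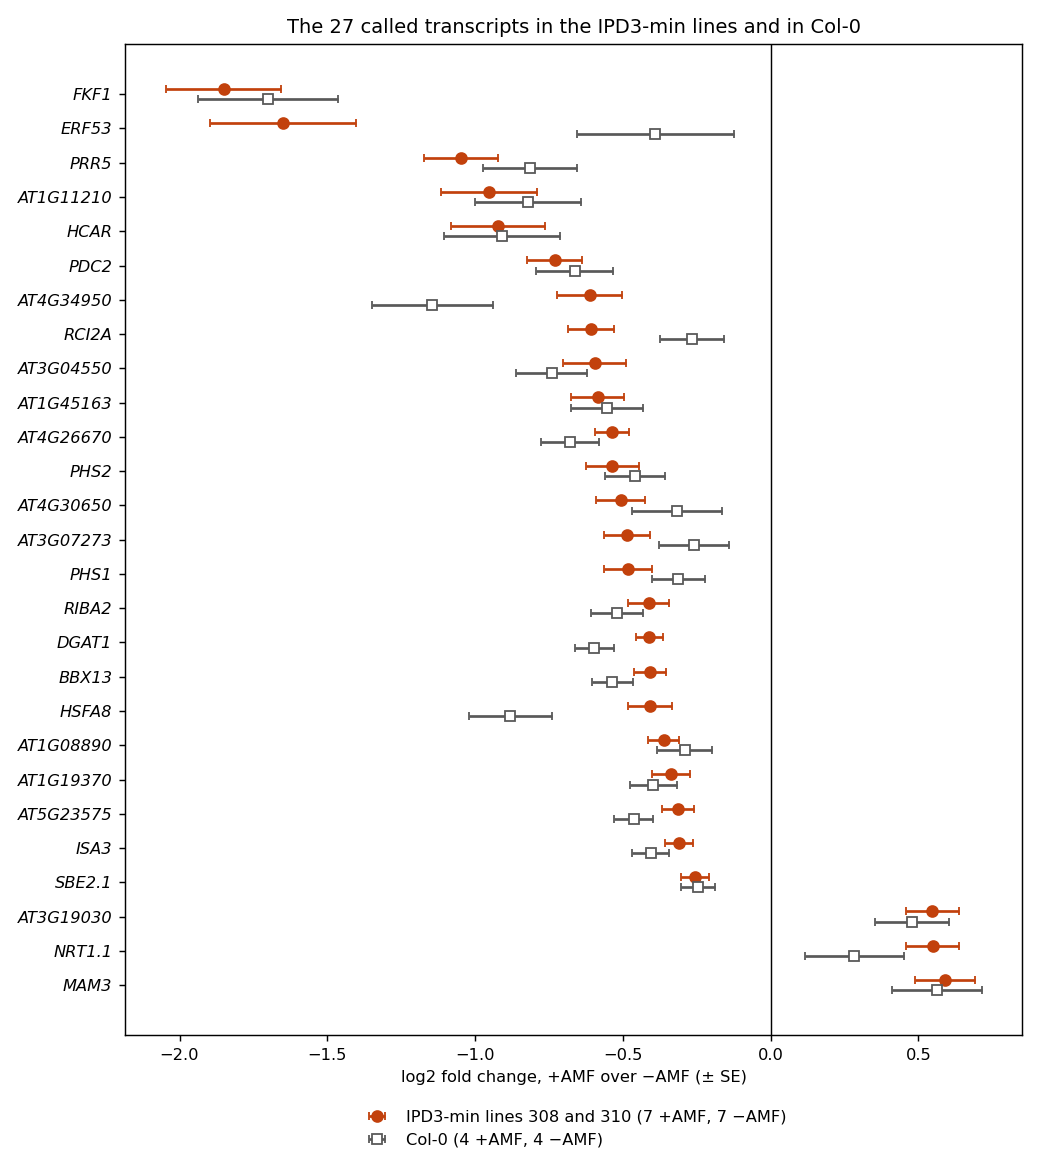
Log2 fold change (+AMF over −AMF, x axis) of each of the 27 called transcripts, with SE as bars, over both IPD3-min lines and in Col-0. All 27 lie on the same side of 0 in both, and ERF53 differs most, with −1.65 in the lines and −0.39 in Col-0.

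The 3 transcripts that rose include a nitrate transporter and an enzyme of glucosinolate synthesis. NRT1.1 (AT1G12110.1, chr1:4105223-4109601, plus strand) takes up nitrate and senses it. Line 308 had 962, 866, 1192 and 922 CPM with AMF, against 633, 606, 824 and 692 CPM without AMF. Line 310 had 1102, 1062 and 1019 CPM with AMF, against 751, 785 and 578 CPM without AMF. The lowest library with AMF lay above the highest without it. The log2 fold change was 0.55 ± 0.09, or 46.3%, with an adjusted p of 0.019, but the adjusted p rose to 0.0538 without replicate 1 of line 310 with AMF, and the call was lost in the fit on all 30 Arabidopsis libraries. Of the 23 tested genes of nitrate and ammonium use, NRT1.1 was the 1 called, against 0.0177% called higher over all transcripts, while 19 of the 23 had positive values and their median was 0.16. The ammonium transporter AMT1;2 had a value of 0.42 ± 0.10 (adjusted p = 0.163) and the high-affinity nitrate transporter NRT2.1 one of 0.60 ± 0.19 (adjusted p = 0.338).

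MAM3 (AT5G23020.1, chr5:7718118-7721866, plus strand), a methylthioalkylmalate synthase that lengthens the side chain of aliphatic glucosinolates, rose too. Line 308 had 384, 502, 376 and 394 CPM with AMF, against 263, 265, 275 and 319.6 CPM without AMF. Line 310 had 516, 604 and 433 CPM with AMF, against 422, 301 and 281 CPM without AMF. The treatments were apart within each line, while replicate 1 of line 310 without AMF lay among the line 308 libraries with AMF. The log2 fold change was 0.59 ± 0.10 (adjusted p = 0.0214, and 0.0745 without replicate 2 of line 308 without AMF), and the call was also lost in the fit on all 30 libraries and in the one without the line covariate. AT3G19030 rose by 0.55 ± 0.09 on the log2 scale (adjusted p = 0.019) and ranged between 72.5 and 102 CPM with AMF and between 47.2 and 73.7 CPM without AMF, so that the treatments overlapped.

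The transcripts with positive values and the smallest p after these 3 did not pass. They include the cytosolic glutamine synthetase GLN1;2 (0.68 ± 0.14, adjusted p = 0.0666), the superoxide dismutase CSD2 (0.32 ± 0.06, 0.0615) and, from glucosinolate synthesis, CYP83B1 of the indole branch (0.32 ± 0.07, 0.0867) and CYP83A1 of the aliphatic branch (0.53 ± 0.11, 0.115). The homocysteine methyltransferase HMT3 had 0.80 ± 0.17 (0.115) and the selenium-binding protein SBP2 had 0.50 ± 0.10 (0.0951). CSD2 and CYP83B1 are without overlap between the 7 libraries with AMF and the 7 without, as were 40 transcripts of all tested. At the threshold, SBE2.1 and AT1G19370 (adjusted p = 0.0488) lay just inside, and AT4G16870 (−0.76, adjusted p = 0.054), TOC1 and AT2G21045 (0.35, adjusted p = 0.0615) lay just outside.

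Among the listed genes of defence, hormones and nutrition, NRT1.1 was the 1 called. In the 26 lists of pathway and marker genes, 297 of 386 genes were tested and 4 were called (FKF1, PRR5, PDC2 and NRT1.1), against 0.16% of all transcripts, and 23 of the lists held no call. Of 25 tested genes of chitin perception and early immunity none was called by edgeR, 5 had an unadjusted p below 0.05 (9.4% of all tested did), 18 had positive values and the median was 0.10, with 0.38 ± 0.09 for the ubiquitin ligase PUB22 (adjusted p = 0.155). Medians lay at −0.03 for salicylic acid defence, 0.08 for jasmonate, 0.04 for ethylene and −0.07 for phosphate starvation. Strigolactone, karrikin and DELLA genes had a median of 0.05, with 0.38 ± 0.09 for LBO, an oxidase of strigolactone synthesis (adjusted p = 0.138), and 0.27 ± 0.07 for the karrikin repressor SMAX1 (adjusted p = 0.224). Of 17 tested suberin and cutin genes 16 had positive values with a median of 0.18 and 8 had an unadjusted p below 0.05, against the same 9.4%, but none was called by edgeR. Those of smallest p were 0.35 ± 0.12 for ABCG6, a transporter of suberin precursors (adjusted p = 0.358), and 0.33 ± 0.12 for CYP86A1, which hydroxylates suberin fatty acids (adjusted p = 0.377). Flavonoid genes had a median of −0.41 in line 308 and 0.41 in line 310, and no gene of the list was called by edgeR or had an unadjusted p below 0.05 over both lines.

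**Figure D4:**
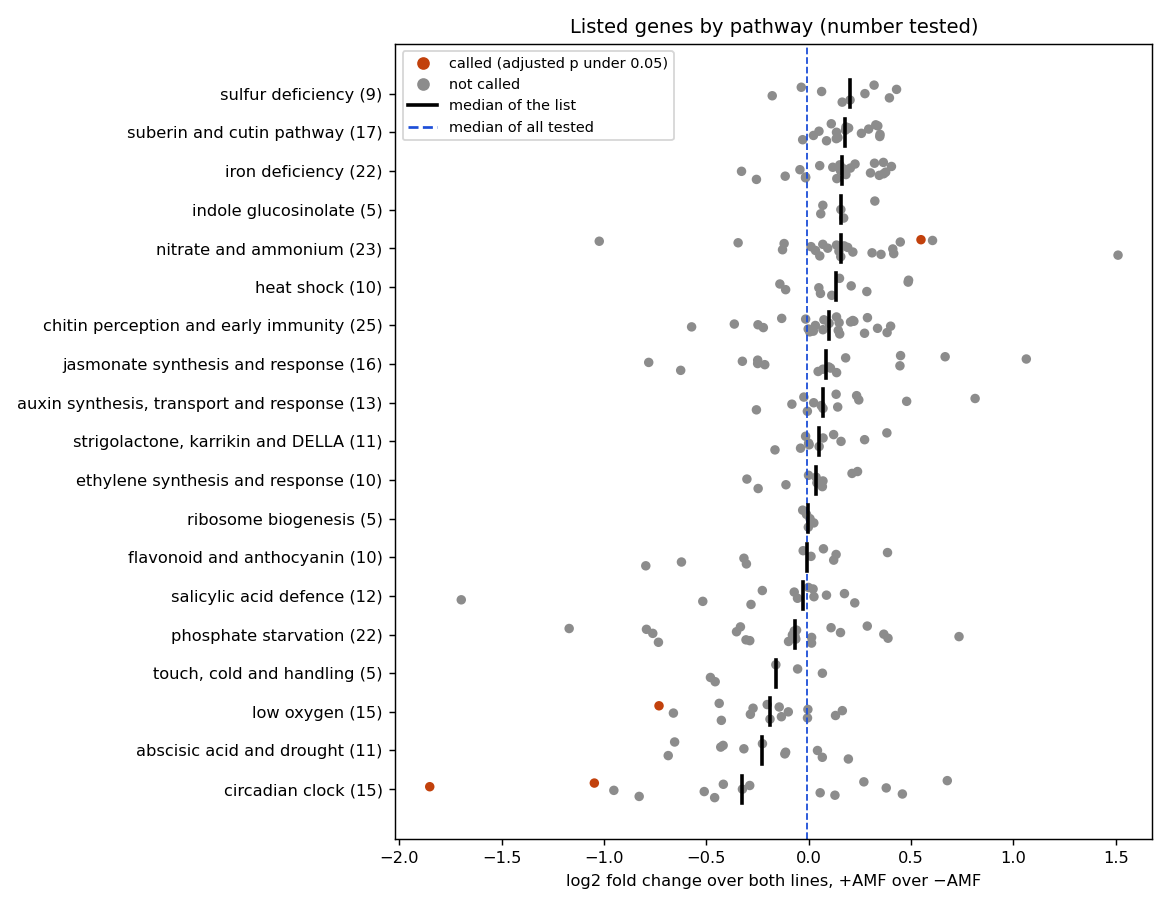
Log2 fold change (+AMF over −AMF, x axis) over both lines of each tested gene in the pathway lists, one list per line of the plot with the number tested and the median as a bar. Clock genes reach the lowest value, −1.85 for FKF1, and called genes are marked.

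Both lines were then read apart. In line 308, 4 transcripts were called, all lower: FKF1, AT4G26670, DGAT1 and RCI2A (0.0236% of those tested). This count fell to 0 when any of the 4 libraries of line 308 with AMF, or replicate 2 or 3 of line 308 without AMF, was left out, and to 2 without replicate 4 of line 308 without AMF, replicate 2 or 3 of line 310 with AMF, or replicate 1 or 2 of line 310 without AMF. DESeq2 called 59 there (0.349%), and 1318 (7.79%) had an unadjusted p below 0.05 with edgeR. In line 310 edgeR called 0 transcripts, with 660 (3.9%) at an unadjusted p below 0.05, and DESeq2 called 14 (0.0827%). The 27 transcripts called over both lines had the same direction in each, which pooling favours, and so did 9722 of all 16925 tested transcripts. The test of the difference between the lines called 0 transcripts with edgeR and 0 with DESeq2, while 419 (2.48%) had an unadjusted p below 0.05 with edgeR. None of the 27 was among these 419. The largest difference among the 27 was −0.76 in ERF53, with −2.06 ± 0.35 in line 308 and −1.31 ± 0.33 in line 310 (unadjusted p = 0.139 with edgeR). The smallest p for this difference belonged to the small heat shock protein HSP17.6A, with a log2 fold change of −1.04 ± 0.47 in line 308 and 1.88 ± 0.54 in line 310. It had 0.645, 0.5, 0.644 and 0.214 CPM in line 308 with AMF, against 0.355, 1.23, 0.647 and 1.91 CPM without AMF, and 1.084, 1.28 and 1.87 CPM in line 310 with AMF, against 0.353, 0.4935 and 0.283 CPM without AMF. The treatments were apart in line 310 only, and the adjusted p of the difference was 1.

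**Figure D5:**
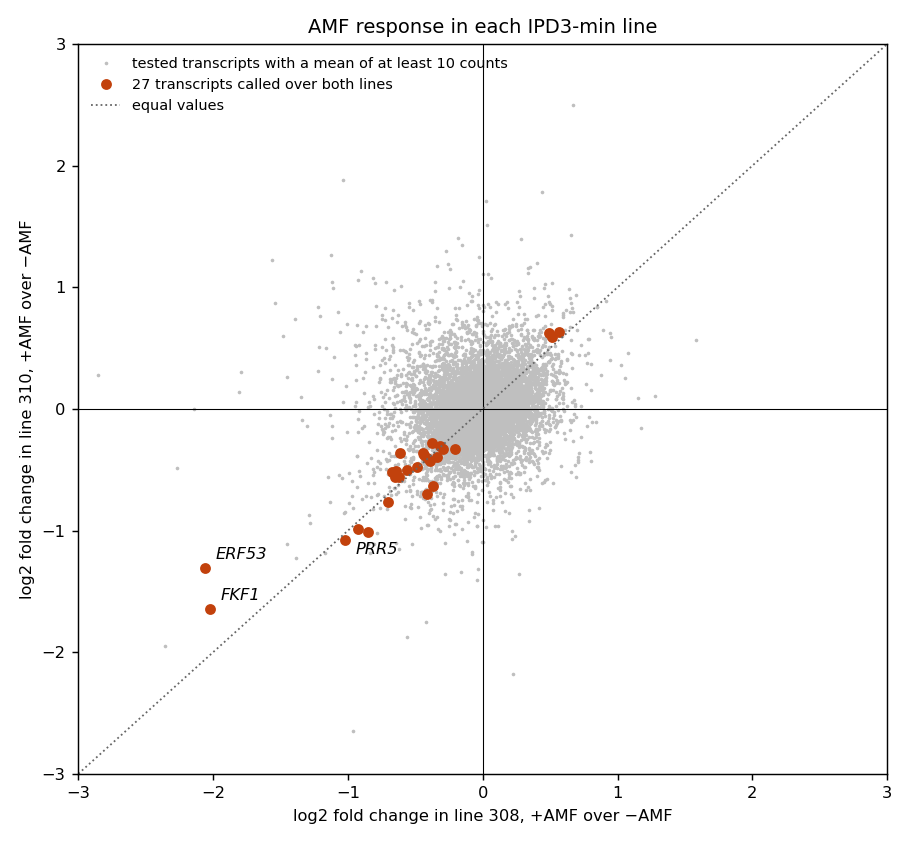
Log2 fold change (+AMF over −AMF) in line 308 (x axis) and in line 310 (y axis) of the 14165 tested transcripts with a mean of at least 10 counts, with the 27 called over both lines marked. FKF1 lies at −2.02 and −1.65, and NRT1.1 at 0.52 and 0.59.

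A component analysis of the 14 libraries was made with each line centred on its own mean. Gaps between treatments on the first and second components were smaller than the spread. The first component held 16.6% of the variance, and the mean scores of the treatments lay 4.11 apart with a pooled SD of 18.7; permuting treatments within lines gave an exact, two-sided p of 0.653. On the second, with 15% of the variance, the gap was 0.967 with a pooled SD of 17.9, and the exact p was 0.916. Scores on the first component ran from −20.9 to 37.5 with AMF and from −26.2 to 28.2 without AMF. On the third, with 10.5% of the variance, scores ran from −12.5 to 22.9 with AMF and from −16.9 to 6.92 without AMF. The sign of each component was set so that the mean with AMF was the higher. In line 308 alone, scores on the third ran from −0.085 to 21.9 with AMF and from −15.4 to −7.87 without AMF, without overlap. In line 310 they ran from −12.5 to 22.9 with AMF and from −16.9 to 6.92 without AMF, with overlap. The gap on the third was not tested.

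The response of the lines was set beside that of Col-0, whose libraries are not shared with them although the spread was estimated over all 22 libraries together. In Col-0, 391 transcripts were called (2.31% of those tested), 188 higher (1.11%) and 203 lower (1.2%). That count ran from 66 without replicate 2 of Col-0 with AMF to 985 without replicate 1 of Col-0 with AMF. It was 80 without replicate 3 or without replicate 4 of Col-0 with AMF, and 90, 103 and 79 without replicates 1, 2 and 3 of Col-0 without AMF, each left out alone. All 27 transcripts called in the lines had the same direction in Col-0, against 58.5% of all tested, and 19 of the 27 were called there too. These 19 are 70.4% of the calls in the lines and 4.86% of the calls in Col-0. They were 10 when replicate 2 of Col-0 with AMF was left out. FKF1 had 7.86 ± 1.38 CPM in Col-0 with AMF, against 25.6 ± 7.15 CPM without AMF (SD, n = 4 each), and its change was −1.70 ± 0.24 on the log2 scale. PRR5 changed by −0.81 ± 0.16 in Col-0, PDC2 by −0.66 ± 0.13 and DGAT1 by −0.60 ± 0.07. Of the 15 tested clock genes, 6 were called lower in Col-0 and none higher, with a median of −0.43. Beside FKF1 and PRR5 these were TOC1 (−0.52), GI (−0.43), ELF4 (−1.28) and GRP7 (−2.03). GRP7 was near the floor, with a mean of 3.8 counts per library in the lines, and its adjusted p in Col-0 was 0.0493 with edgeR. Of the 8 not called in Col-0, ERF53 had −0.39 ± 0.27 there, RCI2A −0.27 ± 0.11 and NRT1.1 0.28 ± 0.17. Over the 391 transcripts of Col-0 the median size was 0.64 in Col-0 and 0.14, in the direction of Col-0, in the lines. These transcripts were chosen by their p in Col-0, which favours a larger size there than in the lines.

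The direct test of the AMF response in the lines minus that in Col-0 called 0 transcripts with edgeR, with 1619 at an unadjusted p below 0.05 (9.57%), and DESeq2 called 66 (0.39%). This count rested on 1 library: without replicate 1 of Col-0 with AMF, edgeR called 115 (0.679%), 91 higher and 24 lower. Among the 27 the smallest adjusted p was 0.286, for ERF53 with a difference of −1.29 ± 0.36. Of the fits with a library left out, the one without replicate 1 of Col-0 with AMF gave the most calls, so its values are an extreme. Without that library, 2 of the 27 were called, both with a smaller fall in the lines than in Col-0: AT4G34950 (difference 0.88 ± 0.20) and HSFA8 (0.68 ± 0.15). The smallest p of all belonged to AT2G46670, a CCT motif protein, with a log2 fold change of 0.08 ± 0.09 in the lines and 0.93 ± 0.11 in Col-0. The difference was −0.84 ± 0.14 (adjusted p = 0.103, and 0.0187 without that library). WRKY22, a transcription factor of early immunity, had 0.20 ± 0.11 in the lines and −0.62 ± 0.13 in Col-0, a difference of 0.84 ± 0.17 (adjusted p = 0.188, and 0.0197 without that library). AT3G56290 had −0.04 ± 0.15 in the lines and 1.15 ± 0.19 in Col-0, a difference of −1.17 ± 0.24 (adjusted p = 0.188, and 0.0387 without that library). For ABCG6 the values were 0.35 ± 0.12 in the lines and 1.07 ± 0.23 in Col-0 (adjusted p of the difference = 0.41), and for the cold regulator CBF3 they were −0.46 ± 0.17 and 0.95 ± 0.25 (0.188).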

How the data were processed

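Counts of read pairs per transcript were used as the authors deposited them, without normalization. Per the file headers and the study's methods, the authors cleaned 100 bp paired-end reads with SOAPnuke, assigned them with BBSplit to plant, fungus or construct, and counted pairs with featureCounts v2.0.1, reverse-stranded, on Araport11, dropping pairs on more than 1 transcript. The submitters' processing notes also list FastQC, HISAT2, DESeq2 and TAIR10.

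A transcript entered the tests if any of the 30 Arabidopsis libraries held 10 counts of it or more. The quasi-likelihood F test came from edgeR 4.0.16 (limma 3.58.1, R 4.3.3), with TMM scaling and line as covariate, and a threshold of 0.05 on the Benjamini-Hochberg adjusted p. SE is the size of the log2 fold change over the square root of F. Values per line and their difference came from a fit of the 4 groups, and those for Col-0 from a fit of 22 libraries. Component scores came from log2 CPM (prior count 2), with exact permutation tests within lines. The fit was checked on simulated data. Nothing in the sources used here gives the libraries as repeats of an experiment, so the p-values measure the spread between pools of roots.

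Named were all called transcripts (up to 30), positive and negative ones of smallest p to fill 12 per direction, the 2 genes of smallest p in each list, and the 3 of smallest p in each difference. Other list members, and the transcripts next to the threshold, were named after their values were seen. The analysis, its lists and the motifs were chosen with earlier results of these data known, and the starch and B-box lists after their values. Coordinates are those of the files, which matched RefSeq TAIR10.1 for 99.5% of genes, and upstream sequence was read from that genome, in which 98.8% of 64933 introns of tested transcripts began with GT and ended with AG. Other settings tried were a common dispersion with the likelihood-ratio test of edgeR, DESeq2 1.42.0, no TMM, no filter, filterByExpr, counts summed per gene, a fit on all 30 libraries, no line covariate, the replicate number as a block, and each library left out. Those for Col-0 were chosen after seeing the data. Tables were made in Python 3.11.15 (scipy 1.17.1, pandas 2.3.3, numpy 2.4.6), and figures with matplotlib 3.10.9. Counts of the transgene and of the fungus were not used here.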

Additional observations from a re-analysis of the deposited data

Results flagged for a closer look

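Of 72 groups of 4 libraries examined, 6 held a library far from the other 3, and chance gives about 1 in 20. Replicate 2 of line 308 with AMF stood high for 3 transcripts: MAM3 at 502.5 CPM against 375.6 to 394.4 CPM in the others, CYP83A1 at 277 CPM against 222.7 to 230.7 CPM, and SBP2 at 112.4 CPM against 70.77 to 77.11 CPM. Without AMF, replicate 1 of line 308 stood high for PHS2 at 57.4 CPM, with 38.5 to 41.21 CPM in the others. Replicate 4 of line 308 without AMF stood high for ERF53 at 2.543 CPM, with 1.597 to 1.726 CPM in the others, and low for AT1G45163 at 11.3 CPM, with 13.78 to 14.16 CPM in the others.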

How the results depend on the processing

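Over both lines, the main test called 27 transcripts (3 higher, 24 lower). The likelihood-ratio test with a common dispersion called 267 (114 higher, 153 lower), DESeq2 153 (88 higher, 65 lower) and the fit with no filter 44 (15 higher, 29 lower), and of these 21, 26 and 25 are among the 27. With a library left out the count ran from 14 to 38. FKF1, AT4G26670, DGAT1, PRR5, PDC2, BBX13 and AT3G07273 were called under every alternative run. RCI2A, AT1G08890, NRT1.1, AT4G30650, MAM3, AT4G34950, HSFA8 and SBE2.1 lost the call in the fit on all 30 libraries, and RCI2A, ERF53, ISA3, AT1G11210, MAM3, AT3G04550, HSFA8, SBE2.1 and AT1G19370 without the line covariate. Without 1 library the adjusted p reached 0.0504 for AT3G19030 (line 308 with AMF, replicate 2), 0.0582 for AT4G30650 and 0.152 for AT1G19370 (replicate 3), 0.0687 for AT1G11210 and HCAR (replicate 4), 0.0698 for RIBA2 (replicate 1), 0.0722 for AT5G23575 and 0.0916 for AT3G04550 (line 310 without AMF, replicate 3), 0.109 for AT4G34950 and 0.159 for SBE2.1 (line 308 without AMF, replicate 2) and 0.12 for HSFA8 (line 310 with AMF, replicate 1). In line 308, against 4 calls, the counts were 120 with the likelihood-ratio test, 59 with DESeq2, 8 with no filter, 7 without TMM, 2 with counts summed per gene and 0 to 5 with a library left out. In line 310, against 0, they were 113 with the likelihood-ratio test, 14 with DESeq2, 2 with no filter, 2 in the fit on all 30 libraries, and 0 to 3 with a library left out (3 without replicate 1 of line 308 without AMF). The difference between lines gave 57 with the likelihood-ratio test and 0 in each fit with a library left out. The difference of the AMF response from Col-0 gave 755 with the likelihood-ratio test, 66 with DESeq2 and 0 to 115 with a library left out. For the AMF response in Col-0, against 391, the counts were 1387, 824 and 66 to 985 in the same order. The causes were not tested. Of 827 values of single named transcripts under an alternative, 655 kept direction and side of the threshold, 138 kept direction and lost the call, 34 gained one and 0 turned round. The gap on the first component was 4.804 with a prior count of 0.5, 0.356 with 500 transcripts and 1.11 to 6.65 with a library left out, and on the second 1.43, 1.66 and 0.252 to 12.2.

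With the replicate number as a block, 16 transcripts were called over both lines (4 higher, 12 lower), 12 of them among the 27, 0 in line 308 and 107 in Col-0. Same-numbered libraries of the treatments correlated between −0.31 and 0.23 after removal of group means, and 2 of 7 correlated best with their own number. With 3 or 4 libraries per group, these correlations cannot show whether the numbers pair the libraries. Depth was nearly even, and the lowest mean among the calls was 23.7 counts, in ERF53, where counting error adds most.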

Other observations

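Regulators of the B-box, CONSTANS-like and CDF families, listed after values had been seen, were tested for 12 of 14 genes. BBX13 was the 1 called lower, against 0.142% of all transcripts, and BBX8 had −0.44 ± 0.09 (adjusted p = 0.0849 with edgeR) in the lines and −0.80 in Col-0. BBX25 had a value of 0.52 ± 0.13 (adjusted p = 0.176) in the lines and 1.40 in Col-0, where it was called, and BBX28 had 0.24 ± 0.09 in the lines and 0.57 in Col-0, where it was called too. The median of the 12 was 0.25 in the lines and 0.55 in Col-0, beside −0.01 and 0.01 over all tested transcripts.

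Drought and abscisic acid genes had a median of −0.23 in the lines and 0.31 in Col-0, with no call in the lines. RD29A, a dehydration marker, had −0.65 ± 0.23 (adjusted p = 0.369 with edgeR) in the lines and 0.52 ± 0.34 in Col-0, and the dehydrin LTI30 had −0.32 ± 0.09 (adjusted p = 0.281) in the lines and 0.30 ± 0.16 in Col-0. The adjusted p of these differences from Col-0 was 0.382 for RD29A and 0.357 for LTI30. Salicylic acid genes had a median of −0.03 in the lines and −0.73 in Col-0. None of the 12 tested was called in the lines or in Col-0. Their smallest adjusted p for a difference from Col-0 was 0.368, for WRKY54. Chitin and early immunity genes had a median of 0.10 in the lines and −0.34 in Col-0, where 3 of 25 were called lower, against 1.2% of all transcripts.

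Upstream regions with the evening element also held more transcripts lower than higher in Col-0, 14.4% against 6.55% at an unadjusted p below 0.05, beside 9.95% and 9.04% over all regions. In sulfur metabolism, the reductase APR1 had 0.43 ± 0.20 (adjusted p = 0.513 with edgeR), and 7 of 9 tested genes of sulfur deficiency had positive values with none called.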
